A study of Mus musculus with 2 samples.

Results

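The genes described here encode the mitochondrial respiratory chain and ATP synthase. Members were taken by symbol (beginning with Nduf, Cox4 to Cox8, Uqcr, Atp5 or mt-, plus Sdha, Sdhb, Sdhc and Sdhd), which gave 105 of the 27998 genes counted, 92 encoded in the nucleus and 13 on the mitochondrial genome. By complex, the nuclear members comprised 36 genes of complex I, 7 complex I assembly factors, 4 of complex II, 8 of complex III, 20 of complex IV and 17 of complex V. Ndufa4 and Ndufa4l2, whose symbols name complex I, were counted with complex IV, and the other genes by symbol. The mitochondrial genes comprised 7 of complex I, 1 of complex III, 3 of complex IV and 2 of complex V.

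Complexes I to IV pass electrons from NADH and succinate to oxygen and, except for complex II, pump protons across the inner mitochondrial membrane, and complex V uses the proton gradient to make ATP. Complex II is encoded in the nucleus alone, whereas the other complexes are built from products of both genomes. Skeletal muscle fibres are rich in these complexes, but the cells measured here were the mononuclear cells that lie between the fibres.

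Mononuclear cells were isolated from the quadriceps, a limb muscle, and from the diaphragm, the respiratory muscle, of C57BL/6J mice, with no genetic change or treatment given in the labels. Digestion with collagenase B and dispase II was followed by a density gradient and a viability sort on light scatter. The experiment used 10 mice, and cells of several animals were combined per tissue before 1 droplet library was made from each, so there was no replicate and no test between classes or tissues was possible. The labels give no age. Intervals below are 95% intervals, exact Poisson for levels and exact binomial (Clopper-Pearson) for shares, and cover counting error only. Those of ratios come from the exact binomial split of the counts of both groups. A level of 0 UMIs was given a fixed upper limit of 3 counts.

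The quadriceps library held 5159 barcodes with 50854519 unique molecular identifiers (UMIs, each counting 1 captured RNA molecule) and the diaphragm library 2499 barcodes with 28545242 UMIs, and 5 barcode sequences occurred in both. Barcodes with at least 1000 UMIs were assigned to a class when at least 3 different markers of that class were seen and held at least 2/3 of all class marker UMIs. No limit was set on mitochondrial UMIs. This gave, in quadriceps and diaphragm respectively, 1325 and 46 smooth muscle cells (Myh11, Acta2, Tagln, Cnn1, Pln), 2449 and 1776 fibro-adipogenic progenitors (FAPs; Pdgfra, Dpt, Clec3b, Lum, Col14a1), 159 and 11 satellite cells (Pax7, Myf5, Myod1, Chodl, Cdh15, Calcr), and 477 and 146 immune cells (Ptprc, Cd52, Coro1a, Laptm5, Rac2, Cd53). Groups under 50 cells, namely smooth muscle and satellite cells of the diaphragm, were small. Pericyte genes were uneven in the smooth muscle class: Cspg4 stood at 325 CPM (UMIs per 1000000 UMIs of nuclear genes) in quadriceps and 368 CPM in diaphragm and Rgs5 at 40.1 and 173 CPM, but Kcnj8 was at 3.30 and 2.54 CPM and Abcc9 at 3.10 and 0 CPM, so that the defining pericyte channel genes were at or near 0. Summed over 10 muscle fibre genes, the smooth muscle class held 48.0 and 10.2 CPM.

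Smooth muscle cells held the largest mitochondrial and nuclear respiratory chain shares of the 4 classes in both tissues. Mitochondrial genes took 18.6% of all UMIs in quadriceps smooth muscle (18.58 to 18.61) and 20.9% in diaphragm smooth muscle (20.78 to 21.01), compared with 4.18% and 4.23% in FAPs, 7.40% in quadriceps satellite cells, and 5.20% and 5.84% in immune cells. Nuclear members took 4.48% of the UMIs of nuclear genes in quadriceps smooth muscle (4.47 to 4.49) and 4.05% in diaphragm smooth muscle (3.99 to 4.11). The same nuclear share was 1.58% and 1.43% in FAPs, 2.11% in quadriceps satellite cells, and 1.60% and 1.54% in immune cells. In quadriceps the order was smooth muscle, satellite cells, immune cells and FAPs on both scales, but immune cells and FAPs were close on the nuclear share (1.60% and 1.58%) and further apart on the mitochondrial share. The 11 satellite cells of the diaphragm had a mitochondrial share of 5.86% and a nuclear share of 1.45% (1.35 to 1.54), an interval that includes the nuclear shares of FAPs and immune cells there.

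The same separation was seen barcode by barcode. The median nuclear share per quadriceps barcode was 4.53% in smooth muscle (quartiles 3.61 to 5.15%) and 1.57% in FAPs (1.41 to 1.73%), and in diaphragm it was 3.98% (2.71 to 4.65%) and 1.42% (1.27 to 1.58%). Median mitochondrial shares were 17.3% (14.7 to 21.4%) and 18.8% (15.6 to 24.5%) in smooth muscle of the 2 tissues, and 3.98% (3.26 to 5.00%) and 4.11% (3.39 to 4.95%) in FAPs. A limit of 5% mitochondrial UMIs, a common filter, would remove 1313 of 1325 quadriceps smooth muscle cells (99.1%) and 46 of 46 in diaphragm, but 612 of 2449 (25.0%) and 426 of 1776 (24.0%) FAPs. Cytosolic ribosomal protein genes, which take part of the nuclear total, held 7.43% and 5.94% of nuclear UMIs in smooth muscle, 12.4% and 13.5% in FAPs, 25.6% in quadriceps satellite cells, and 27.9% and 28.7% in immune cells. Without them in the total the nuclear member share was 4.84% and 4.30% in smooth muscle, 1.80% and 1.66% in FAPs, 2.84% in satellite cells, and 2.22% and 2.15% in immune cells, so smooth muscle was still highest and the gap between immune cells and FAPs was wider.

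**Figure D1:**
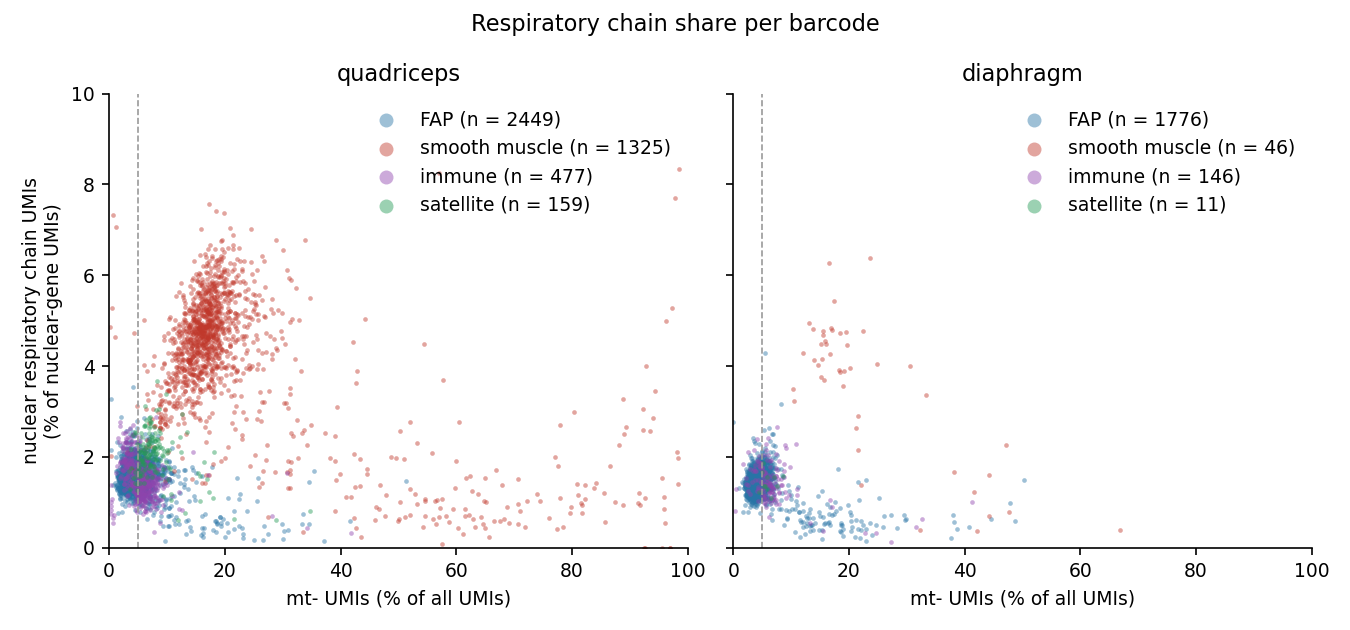
Each point is 1 barcode, with the mitochondrial share of all UMIs (x axis, %) against the share of nuclear-gene UMIs that came from the 92 nuclear members (y axis, %), in quadriceps (left) and diaphragm (right). Colours are the 4 classes and the dashed line marks 5% mitochondrial UMIs; most smooth muscle cells lie to the right of it (1313 of 1325 and 46 of 46) and above the other classes.

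Gene by gene, 79 of the 92 nuclear members reached 50 CPM in quadriceps smooth muscle cells or FAPs, with the cells of a class pooled; a UMI marks 1 captured 3′ end, so CPM was not scaled by gene length. Of these, 69 were at least 2-fold higher in smooth muscle, against 20.3% of all 4096 genes at that minimum, and 0 were at least 2-fold lower, against 24% of all genes. A gene can reach the minimum through the group in which it is high, so the 74 members with 50 CPM in both classes were also counted, of which 65 were past 2-fold higher, beside 11.97% of the 2223 such genes. The median log2 fold (on CPM plus a pseudocount of 1) was 1.43 over the 79 members, with quartiles of 1.23 and 1.74, and -0.05 over all genes tested. Over all 92 members, 84 had a fold above 0 and 6 below. Restricting the cells to at most 20% mitochondrial UMIs gave 70 of 80 members past 2-fold higher, beside 19.9% of all 4069 genes. With all UMIs, mitochondrial ones included, as the total, the count was 56, and 17.2% of all genes were past 2-fold higher and 30.7% lower.

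In diaphragm, where only 46 smooth muscle cells were available, 66 of the 80 members at the minimum were past 2-fold higher (24.7% of all 4107 genes were), and 0 were past 2-fold lower (24.7% of all genes were). The median log2 fold of the members was 1.41, compared with 0.10 for all genes. With all UMIs as the total the count was 46, beside 20.2% higher and 31.7% lower of all genes. Summed over the 92 members, the nuclear level was 2.84-fold higher in smooth muscle than in FAPs in quadriceps and 2.82-fold in diaphragm. Each of the mitochondrial genes was also higher, and their summed share of all UMIs was 4.45-fold and 4.94-fold higher. Relative to the same denominator as the nuclear genes these mitochondrial folds were 5.24 and 5.98, so the mitochondrial transcripts stood further above FAPs than the nuclear ones did. Mitochondrial UMIs per nuclear member UMI were 5.10 and 6.53 in smooth muscle, 2.76 and 3.08 in FAPs, 3.78 in satellite cells, and 3.43 and 4.04 in immune cells.

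**Figure D2:**
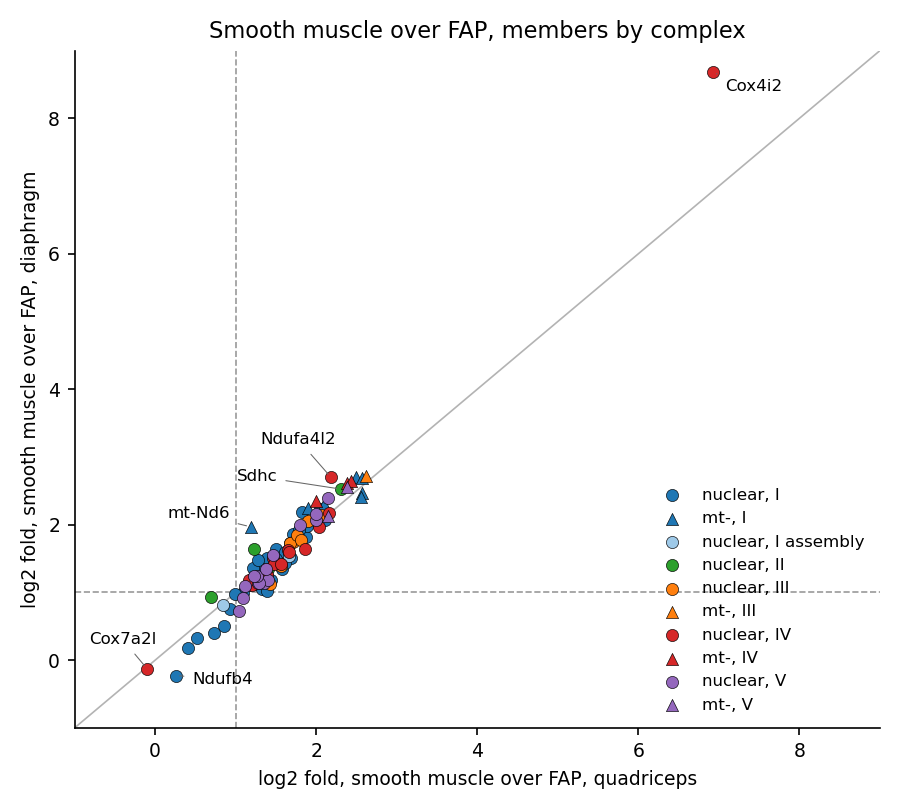
Log2 fold of CPM plus 1, smooth muscle over FAP, in quadriceps (x axis) and diaphragm (y axis) for the 79 nuclear members (circles) at 50 CPM in both tissues' comparisons and the 13 mitochondrial genes (triangles), coloured by complex. Dashed lines mark 2-fold and the solid line equal folds; most members lie between log2 folds of 1 and 2.7 in both tissues, Cox4i2 lies far outside at 6.92 and 8.68, and Cox7a2l and Ndufb4 lie near 0.

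Complex I, the NADH dehydrogenase, had 29 of its 36 nuclear genes past 2-fold in quadriceps (median log2 fold 1.36) and 28 of 36 in diaphragm (1.34). Ndufa12, an accessory subunit, was at 419 CPM in quadriceps and 383 CPM in diaphragm smooth muscle, compared with 96.1 and 90.4 CPM in FAPs, log2 folds of 2.11 and 2.07. Ndufs1, the largest core subunit, was at 148 and 173 CPM against 41.3 and 37.2 CPM (1.82 and 2.19), and Ndufb7 was at 531 and 470 CPM against 128 and 99.0 CPM (2.05 and 2.24). Core and accessory subunits were thus both among the higher genes. The lowest folds of the complex were those of Ndufb4, a membrane arm subunit, at 196 against 164 CPM in quadriceps and 124 against 146 CPM in diaphragm, log2 folds of 0.25 and -0.23. The diaphragm ratio of Ndufb4 was 0.85 (0.63 to 1.13), an interval that includes 1. Ndufs4, a subunit whose loss causes Leigh syndrome, was at 133 and 86.3 CPM in smooth muscle and 99.4 and 76.1 CPM in FAPs (0.41 and 0.18), and Ndufv3 was at 248 and 218 CPM against 172 and 175 CPM (0.53 and 0.32). Many of these genes have processed copies elsewhere in the genome, and reads that match several places are not counted, so the level of a single gene such as Ndufb4 is uncertain.

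The 7 complex I assembly factors were low, and only 2 reached the minimum in quadriceps. Ndufaf4 was at 104 and 73.7 CPM in smooth muscle and 32.3 and 24.7 CPM in FAPs (log2 folds 1.66 and 1.54), and Ndufaf2 at 71.1 and 58.4 CPM against 39.1 and 32.9 CPM (0.85 and 0.81). Ndufaf1, Ndufaf3, Ndufaf5, Ndufaf6 and Ndufaf7 lay between 11.7 and 49.8 CPM in quadriceps smooth muscle. Complex II, the succinate dehydrogenase shared with the tricarboxylic acid (TCA) cycle, had 3 of 4 genes past 2-fold in both tissues. Sdhc, its membrane anchor, was at 352 and 340 CPM against 70.3 and 58.3 CPM in FAPs, ratios of 5.01 (4.74 to 5.29) in quadriceps and a log2 fold of 2.53 in diaphragm. Sdhd, the other anchor subunit, differed less, at 147 and 135 CPM against 90.5 and 70.1 CPM (log2 folds 0.69 and 0.93). The anchors of 1 enzyme therefore had unequal folds in both tissues.

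Complex III, the cytochrome bc1 complex, was higher throughout: 8 of 8 nuclear genes were past 2-fold in both tissues, with medians of 1.74 and 1.76. Uqcr11 was at 794 and 797 CPM against 189 and 180 CPM (log2 folds 2.06 and 2.14), and Uqcrb, the lowest of the complex, at 832 and 625 CPM against 309 and 287 CPM (1.43 and 1.12). Uqcrfs1, the Rieske iron-sulfur protein, lay between them (1.81 and 1.77). Complex V, the ATP synthase, had 15 of the 15 genes at the minimum past 2-fold in quadriceps (median 1.35) and 13 of 15 in diaphragm (1.25). Atp5b, the catalytic beta subunit, was at 1700 and 1834 CPM against 384 and 349 CPM (log2 folds 2.14 and 2.39; ratio in quadriceps 4.43, 4.32 to 4.53). The 3 genes for the c subunit of the rotor ring encode the same mature protein yet had unequal folds: Atp5g3 was at 586 and 541 CPM against 146 and 128 CPM (1.999 and 2.08), whereas Atp5g1 was at 420 and 323 CPM against 204 and 194 CPM (1.04 and 0.73). Atp5g1 therefore made up 41.8% of Atp5g1 and Atp5g3 UMIs in quadriceps smooth muscle (41.0 to 42.5) and 58.3% in FAPs (57.2 to 59.3). The 2 members of this group below the minimum, Atp5s and Atp5sl, carry the prefix but are not subunits of the enzyme.

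Complex IV, cytochrome c oxidase, had 13 of the 14 genes at the minimum past 2-fold in both tissues (medians 1.61 and 1.56). Cox8a was at 2437 and 2316 CPM against 546 and 514 CPM, log2 folds of 2.16 and 2.17, and Cox5a at 593 and 462 CPM against 144 and 118 CPM (2.04 and 1.96). Cox7a2l was the exception, at 259 and 262 CPM in smooth muscle and 278 and 286 CPM in FAPs. Its ratio in quadriceps was 0.93 (0.90 to 0.97). It was higher in other classes, at 572 CPM in quadriceps satellite cells and at 556 and 480 CPM in immune cells, so that smooth muscle and FAPs were the low ones of the 4 main classes for this gene. Endothelial cells and tenocytes of the quadriceps were lower still, at 235 and 185 CPM.

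Of the isoform genes of complex IV, Cox4i2 separated smooth muscle from the other classes most clearly. Cox4i2 (chr2:152754173-152765037, plus strand, GRCm38) encodes an isoform of subunit 4 known for expression in lung and for a response to low oxygen, and Cox4i1 (chr8:120668222-120674207, plus strand) encodes the general isoform. Cox4i2 was at 432 CPM in quadriceps smooth muscle (421 to 442) and at 787 CPM in diaphragm smooth muscle (702 to 880). It was at 2.57 and 0.92 CPM in FAPs, 2.66 CPM in quadriceps satellite cells (2 UMIs), and 3.42 CPM (7 UMIs) and 0 CPM in immune cells, the last allowing up to 3.57 CPM. The ratio of smooth muscle to FAP was 168 in quadriceps (131 to 219) and 855 in diaphragm (538 to 1439). The log2 folds were 6.92 and 8.68, beside medians of -0.05 and 0.10 over all genes tested. Free RNA and mixed barcodes give a small level of any abundant smooth muscle RNA in other classes: the 5 smooth muscle markers stood in quadriceps FAPs, satellite cells and immune cells at 0.29%, 0.88% and 0.57% of their smooth muscle level, and Cox4i2 at 0.59%, 0.62% and 0.79%. In diaphragm FAPs the markers stood at 0.04% and Cox4i2 at 0.12%. In tenocytes of the quadriceps Cox4i2 stood at 4.03% (17.4 CPM, 11 UMIs) and the markers at 0.65%, so Cox4i2 was further above the markers there than in the other classes. The part of free RNA in these low levels was not tested.

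Cox4i1 differed far less between classes, at 1420 and 1252 CPM in smooth muscle, 630 and 553 CPM in FAPs, 1128 CPM in satellite cells, and 728 and 642 CPM in immune cells. UMIs of Cox4i2 made up 23.3% of all Cox4 UMIs in quadriceps smooth muscle (22.8 to 23.8, 6553 of Cox4i2 beside 21546 of Cox4i1) and 38.6% in diaphragm smooth muscle (35.2 to 42.1, 310 beside 493). The same share was 0.41% and 0.17% in FAPs, 0.24% in satellite cells and 0.47% in quadriceps immune cells. Among the 1056 quadriceps smooth muscle cells with at least 10 Cox4 UMIs it ran from 0 to 68.8% with a median of 21.4% (quartiles 12.5 to 31.3%), and among 33 such cells in diaphragm the median was 39.1% (28.6 to 48.1%). Thinned to 1000 UMIs per cell, 32.7% of 1261 quadriceps smooth muscle cells and 43.5% of 46 in diaphragm had a Cox4i2 UMI, against 0.20% of 2442 and 0.06% of 1766 FAPs and 0.42% of 477 quadriceps immune cells. Left out as too shallow were 64 smooth muscle cells in quadriceps, 7 and 10 FAPs, and 0 quadriceps immune cells. Every classed cell held at least 1000 UMIs in all, so the UMIs thinned were fewer than all UMIs of a cell. Before thinning, the shares were 85.6% and 84.8% in smooth muscle at median depths of 14693 and 11533.5 UMIs, 2.38% and 0.79% in FAPs at 10411.5 and 12257 UMIs, and 1.47% in immune cells at 3672 UMIs.

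Whether reads can tell the isoforms apart depends on how far their sequences differ. The last 150 bases of the coding sequence, stop codon included, are shown for both pairs from the GENCODE M21 transcripts, aligned without gaps from the stop codon, with capitals where the pair differs.
Cox4i1: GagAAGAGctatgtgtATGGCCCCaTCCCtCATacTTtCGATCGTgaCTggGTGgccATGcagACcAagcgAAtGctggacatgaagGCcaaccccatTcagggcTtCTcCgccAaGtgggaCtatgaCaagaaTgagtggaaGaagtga
Cox4i2: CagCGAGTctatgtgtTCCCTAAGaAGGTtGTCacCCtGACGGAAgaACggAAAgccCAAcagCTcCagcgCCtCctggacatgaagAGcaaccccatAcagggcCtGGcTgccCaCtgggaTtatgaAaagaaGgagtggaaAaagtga
Ndufa4: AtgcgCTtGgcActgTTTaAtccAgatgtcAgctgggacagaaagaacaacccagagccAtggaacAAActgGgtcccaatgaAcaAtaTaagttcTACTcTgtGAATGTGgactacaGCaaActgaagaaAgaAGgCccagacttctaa
Ndufa4l2: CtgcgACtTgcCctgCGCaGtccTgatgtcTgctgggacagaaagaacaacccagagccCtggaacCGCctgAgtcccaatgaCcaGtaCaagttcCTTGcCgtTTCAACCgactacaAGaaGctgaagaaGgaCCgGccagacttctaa
The Cox4 genes were identical at 93 of these bases (62.0%), with no identical run longer than 12 bases, and the Ndufa4 genes at 112 (74.7%), with a longest run of 28. Their proteins have 169 and 172 residues (Cox4i1, Cox4i2) and 82 and 87 residues (Ndufa4, Ndufa4l2). The reads of this assay start near the 3′ end of the RNA, which extends past the stretch shown.

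Ndufa4l2 (chr10:127514967-127517154, plus strand), a paralog of the complex IV subunit gene Ndufa4 that is known as a target of hypoxia-inducible factor, followed another pattern. It was at 386 and 460 CPM in smooth muscle and at 84.1 and 69.9 CPM in FAPs, log2 folds of 2.18 and 2.70. Quadriceps satellite cells held 2.66 CPM and quadriceps immune cells 0.98 CPM (2 UMIs in each class; ratios to FAPs of 0.0316, 0.00383 to 0.114, and 0.0116, 0.00141 to 0.0421), and diaphragm immune cells held 0 UMIs, which allows up to 3.57 CPM. The gene was therefore shared by smooth muscle and FAPs and was nearly undetected in the other main classes. Its FAP level was 21.8% and 15.2% of the smooth muscle level, far above the 0.29% and 0.04% of the smooth muscle markers. Ndufa4l2 made up 28.9% and 37.2% of Ndufa4 plus Ndufa4l2 UMIs in smooth muscle and 19.8% and 19.5% in FAPs, and after thinning it was seen in 27.8% of quadriceps smooth muscle cells, 9.25% of FAPs and 0.21% of immune cells (64.3%, 35.9% and 0.42% before thinning).

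The isoforms typical of striated muscle were low everywhere. Cox7a1, the heart and skeletal muscle isoform of subunit 7a, was at 28.5 and 17.8 CPM in smooth muscle and 5.66 and 2.42 CPM in FAPs, and made up 2.71% and 2.15% of Cox7a1 and Cox7a2 UMIs in smooth muscle. Cox6a2, the striated muscle isoform of subunit 6a, had 0 UMIs in smooth muscle of either tissue, beside 8352 and 215 UMIs of Cox6a1. Cox8b, the striated muscle isoform of subunit 8, had 1 UMI in quadriceps smooth muscle beside 36973 of Cox8a. Cox6b2, Cox7b2 and Cox8c, isoforms known from testis, were at 6.39, 0 and 0 CPM in quadriceps smooth muscle and at 6.88, 0 and 0 CPM in FAPs. These low isoforms account for 6 of the 13 members below the minimum in quadriceps, and the other 7 were Ndufaf1, Ndufaf3, Ndufaf5, Ndufaf6, Ndufaf7, Atp5s and Atp5sl.

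**Figure D3:**
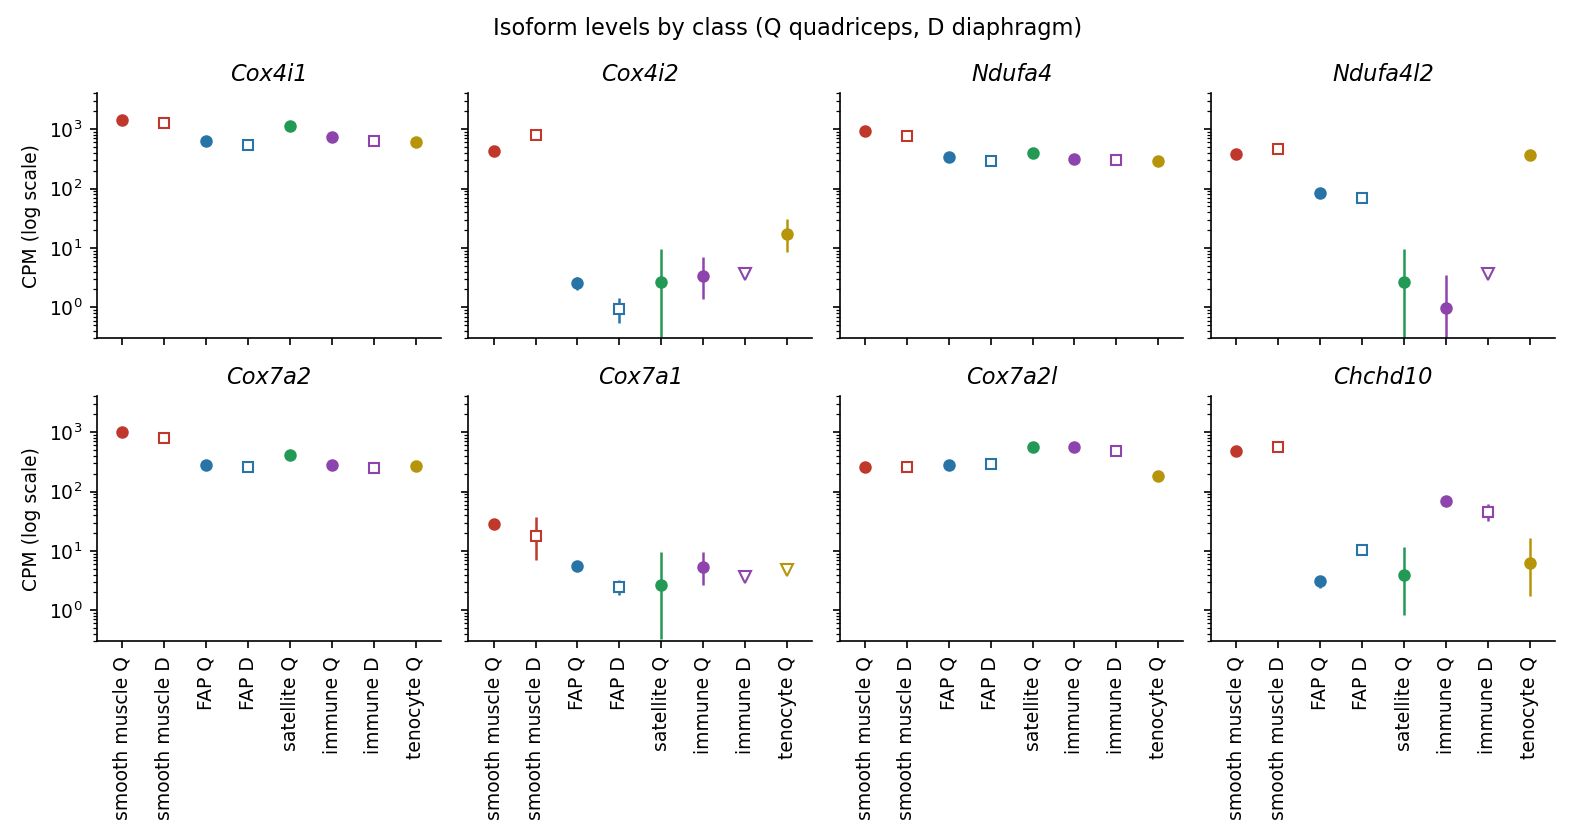
Levels (CPM, log scale) of 3 isoform pairs of complex IV, of Cox7a2l and of Chchd10 in each class, with filled circles for quadriceps (Q) and open squares for diaphragm (D). Bars are 95% Poisson intervals and triangles mark the limit that 0 UMIs allow. Cox4i2 reaches 432 and 787 CPM in smooth muscle and at most 17.4 CPM in the other classes shown, whereas Ndufa4l2 is also found in FAPs and in quadriceps tenocytes (375 CPM).

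The 13 mitochondrial genes stood above FAPs in smooth muscle, with log2 folds between 1.19 and 2.62 in quadriceps and between 1.97 and 2.72 in diaphragm, on the same scale of CPM over nuclear-gene UMIs. The largest in quadriceps were mt-Cytb at 30142 against 4902 CPM (2.62), mt-Nd4 at 19482 against 3283 CPM (2.57), mt-Nd3 (2.56), mt-Nd4l (2.55) and mt-Nd2 (2.49). The ATP synthase and oxidase genes followed, with mt-Co3 at 2.44, mt-Atp6 and mt-Co2 at 2.38 and mt-Atp8 at 2.14. The smallest were mt-Nd1 (2.09), mt-Co1 (1.9999), mt-Nd5 (1.90) and mt-Nd6 (1.19), the last at 49.0 against 21.0 CPM and thus below the minimum. The genes of one transcribed genome therefore had unequal folds, which also showed in the makeup of the mitochondrial UMIs. Of the mitochondrial UMIs, mt-Co1 made up 10.1% in quadriceps smooth muscle, 13.2% in FAPs and 16.7% in immune cells, and mt-Cytb 13.2%, 11.2% and 7.27%. Complexes showed the same excess of mitochondrial over nuclear folds: in quadriceps, mitochondrial and nuclear genes of complex I were 5.41-fold and 2.58-fold higher in smooth muscle, those of complex III 6.15-fold and 3.28-fold, those of complex IV 4.94-fold and 3.09-fold, and those of complex V 5.21-fold and 2.78-fold.

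Cells with very large mitochondrial shares did not carry more nuclear member RNA. In quadriceps smooth muscle the median nuclear share per cell was 3.89% in the 12 cells with up to 5% mitochondrial UMIs, and went from 3.03% in the 57 cells with 5 to 10% mitochondrial UMIs to 4.27% (290 cells, 10 to 15%), 4.86% (572 cells, 15 to 20%) and 4.97% (209 cells, 20 to 30%). It was 1.33% in the 185 cells above 30%, where the nuclear-retained RNA Malat1 was at 159038 CPM, compared with 66300 CPM in the band before, and where the median depth was 5041 UMIs. In diaphragm the 11 smooth muscle cells above 30% likewise had a median of 1.23% and Malat1 at 171890 CPM, whereas 20 cells with 15 to 20% had 4.48% and 72381 CPM. The part that damaged cells had in these values was not tested. Across all cells the mitochondrial and nuclear shares had a Pearson correlation of -0.55 and a Spearman correlation of -0.05 in quadriceps smooth muscle (1325 cells), and -0.75 and -0.56 in diaphragm (46 cells), values that share the depth of each cell and combine both bands. FAPs showed the fall at lower mitochondrial shares, from 1.62% in 508 quadriceps cells with 5 to 10% to 0.55% in 21 cells with 15 to 20%, and from 1.53% in 328 diaphragm cells to 0.57% in 27 cells. The Cox4i2 share of Cox4 UMIs was 19.0%, 20.7%, 24.9% and 23.7% over the 4 quadriceps smooth muscle bands from 5 to 30% and 16.5% above 30% (13.1 to 20.4). In diaphragm it was lower in each higher band, at 43.0%, 39.6%, 33.6% and 29.2% (17.0 to 44.1) from 10 to 15% up to above 30%, with neighbouring intervals that overlap.

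**Figure D4:**
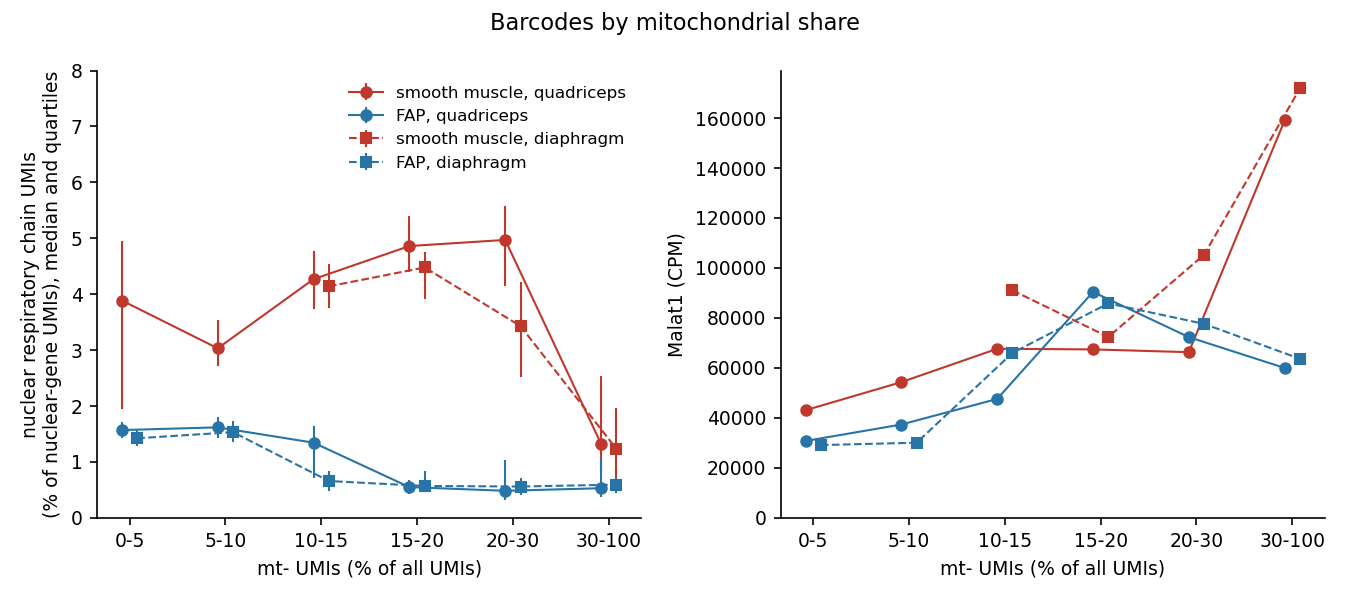
Cells grouped by mitochondrial share (x axis, % of all UMIs, bands with at least 7 cells), for smooth muscle (red) and FAPs (blue) of quadriceps (circles) and diaphragm (squares). Left, median nuclear respiratory chain share of nuclear UMIs (%) with quartiles as bars; right, Malat1 level (CPM). The nuclear share falls to 1.33% and 1.23% in smooth muscle above 30% mitochondrial UMIs, where Malat1 is at its highest.

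Satellite cells, the stem cells of muscle fibres, stood slightly above FAPs in quadriceps. In quadriceps 4 of 75 members at the minimum were past 2-fold higher (12.1% of all 3864 genes were), and 1 was past 2-fold lower (23.4% of all genes were), with a median log2 fold of 0.38 over the members and -0.08 over all genes. Without ribosomal protein genes in the total, all genes moved to a median of 0.24 and to 18.4% higher and 17.5% lower, and 9 members were past 2-fold higher. Those that passed were Ndufs8, an iron-sulfur subunit of complex I, at 165 against 58.0 CPM (ratio 2.84, 2.35 to 3.42), Ndufc2 at 343 against 155 CPM, Uqcr11 at 392.4 against 189 CPM, and Cox7a2l at 572 against 278 CPM. Ndufa4l2 was the gene past 2-fold lower, and Ndufs4 (log2 fold -0.54), Ndufa11 (-0.44) and Ndufv3 (-0.38) came next without reaching 2-fold. The summed nuclear level was 1.34-fold and the mitochondrial share 1.77-fold that of FAPs. In diaphragm, over 11 cells, complex I genes summed to 0.89-fold of the FAP level, the assembly factors to 0.48-fold (4 UMIs), complex II to 1.00-fold, complex III to 1.21-fold, complex IV to 1.06-fold and complex V to 1.04-fold.

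Immune cells differed little from FAPs as a group. In quadriceps 0 of 74 members were past 2-fold higher (19.3% of all 4101 genes were) and 2 were past 2-fold lower (33.4% were), and in diaphragm 2 of 75 were past 2-fold higher (21.5% of all 3944 genes) and 3 lower (30.9%). No replicated test lies behind these counts. Median log2 folds were -0.16 and -0.02 for the members and -0.31 and -0.14 for all genes. Their sign depended on the ribosomal protein genes: without them in the total the member medians were 0.13 and 0.27, beside 0.11 and 0.27 for all genes, with 25.1% higher and 26.1% lower of all genes in quadriceps and 28.2% and 24.7% in diaphragm. Cox7a2l was at 556 CPM against 278 CPM in quadriceps (log2 fold 0.999), just under the limit, and Cox5a at 260 and 276 CPM against 144 and 118 CPM, past 2-fold in diaphragm. Ndufa5, a complex I accessory subunit, was past 2-fold lower in both tissues, at 72.4 and 66.7 CPM against 152 and 140 CPM, and Ndufa4l2 was lower as described. The others past 2-fold in diaphragm were Atp5g2, higher at 444 against 217 CPM, and Ndufc1, lower at 65.5 against 137 CPM. Complex I genes summed to 0.82-fold and 0.85-fold of the FAP level, whereas complex V genes summed to 1.13-fold and 1.21-fold. These sums and the single-gene folds kept ribosomal protein genes in the total. Ribosomal protein genes held 27.9% and 28.7% of nuclear UMIs in immune cells and 12.4% and 13.5% in FAPs. The distance from FAPs depends on that total, but the contrast between complexes I and V does not.

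Immune cells were not uniform. By B, T, NK and myeloid markers, quadriceps NK cells (78 cells) had the largest nuclear share, 1.998% (1.95 to 2.05), and the smallest mitochondrial share, 3.46% (3.40 to 3.53). B cells (197 cells) had 1.33% nuclear and 6.39% mitochondrial, T cells (121 cells) 1.46% and 5.87%, and myeloid cells (73 cells) 1.81% and 3.97%. In diaphragm B cells (46 cells) had 1.39% and 6.92%, T cells (67 cells) 1.58% and 6.36%, and the 10 myeloid and 6 NK cells 1.57% and 2.94% and 1.83% and 3.74%. Lymphocytes of the B and T lineages thus had more mitochondrial signal than myeloid and NK cells in quadriceps. Their nuclear signal was lower on totals that include ribosomal protein genes. On nuclear totals without these genes the quadriceps values were 1.89% in B, 2.42% in T, 2.45% in NK and 2.24% in myeloid cells. T cells were then above myeloid cells and close to NK cells, and B cells alone stayed lowest.

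Between tissues the nuclear members hardly differed. In FAPs 0 of 74 were past 2-fold higher and 0 lower in diaphragm than in quadriceps, beside 3.63% higher and 2.85% lower of all 3439 genes. Of the 74, 68 were lower and 6 higher in diaphragm, with a median log2 fold of -0.13 beside -0.11 for all genes, and the summed level was 0.909-fold. The members at the ends were Ndufa3 at 127 against 109 CPM (0.22), Ndufs8 (0.10), Ndufs4 at 76.1 against 99.4 CPM (-0.38), Sdhd (-0.36) and Ndufb7 (-0.36). In immune cells 0 of 74 members were past 2-fold in either direction (4.86% of all 3004 genes were higher and 4.33% lower), and in smooth muscle 0 of 80 (4.85% of all 3467 genes were higher and 2.74% lower). These shares are all small, so the counts of 0 lie close to the background. The largest tissue difference was that of Cox4i2 in smooth muscle, 787 against 432 CPM (ratio 1.82, 1.62 to 2.04), followed by the lower Ndufb4 (124 against 196 CPM) and Ndufs4 (log2 fold -0.61), all over 46 diaphragm cells.

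In FAPs, mt-Nd3 and mt-Atp8 differed most between tissues among the mitochondrial genes. mt-Nd3, a core subunit gene of complex I, was at 1352 CPM in diaphragm and 903 CPM in quadriceps FAPs (ratio 1.498, 1.47 to 1.52), at 1410 and 610 CPM in immune cells (2.31, 2.13 to 2.50), and at 7479 and 5346 CPM in smooth muscle (1.40, 1.35 to 1.45). It made up 3.06% and 2.07% of mitochondrial UMIs in diaphragm and quadriceps FAPs, 2.27% and 1.11% in immune cells, and 2.83% and 2.34% in smooth muscle. mt-Atp8, a small ATP synthase subunit gene, was at 102 and 67.5 CPM in FAPs (1.52, 1.42 to 1.62). Both genes were higher in diaphragm in the 3 classes. So were all 13 mitochondrial genes in immune cells and in smooth muscle, and 9 of 13 in FAPs, so the shared direction is not particular to them. The FAP mitochondrial share as a whole was 1.01-fold that of quadriceps, so mt-Nd3 and mt-Atp8 differed there within a nearly equal total. With 1 library per tissue, a tissue and a library difference cannot be told apart.

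**Figure D5:**
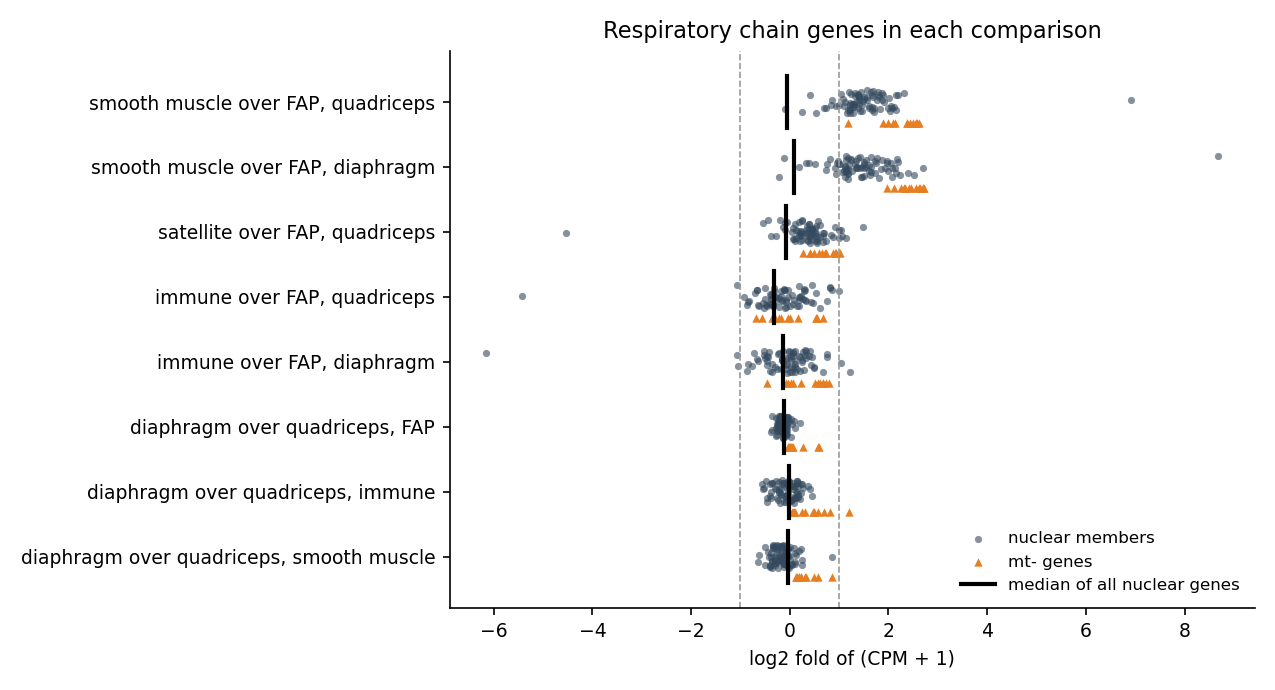
Log2 fold of CPM plus 1 (x axis) for nuclear members at 50 CPM (grey points, spread vertically for legibility) and the 13 mitochondrial genes (orange triangles) in the 8 comparisons. Black bars are the medians of all nuclear genes tested and dashed lines mark 2-fold. Both smooth muscle comparisons lie to the right (medians 1.43 and 1.41) and the tissue comparisons around 0; the far left points are Ndufa4l2, with 2, 2 and 0 UMIs in satellite, quadriceps immune and diaphragm immune cells, so their position depends on the pseudocount.

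Other genes of oxidative metabolism were read from lists of pathways, whose counts stand beside the 20.3% higher and 24% lower of all genes in quadriceps and the 24.7% in each direction in diaphragm given above. A list gene, too, can reach the minimum through the group in which it is high. Of 15 TCA cycle and pyruvate dehydrogenase genes, 14 reached the minimum in quadriceps and 11 were past 2-fold higher in smooth muscle than in FAPs (median log2 fold 1.46), and 13 of 15 in diaphragm (1.53). Idh3a, which encodes the catalytic subunit of the NAD-dependent isocitrate dehydrogenase, was at 188 against 44.1 CPM (2.07), and the lowest were Pdha1 (0.59) and Dlat (0.85), both of pyruvate dehydrogenase. Of 17 glycolysis genes, 13 reached the minimum, with 9 past 2-fold higher and 0 lower in quadriceps (1.53) and 8 higher and 1 lower in diaphragm (1.33). Ldhb, the lactate dehydrogenase subunit typical of oxidative tissue, was at 239 against 21.3 CPM (3.43), whereas Ldha had a log2 fold of 0.16. Respiratory chain, TCA cycle and glycolysis genes thus had like median folds in this comparison.

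Of 20 cytochrome c and accessory genes, 10 reached the minimum in quadriceps and 5 were past 2-fold higher. Chchd10, which encodes a small protein of the mitochondrial intermembrane space, was at 485 and 559 CPM in smooth muscle and at 3.05 and 10.2 CPM in FAPs (log2 folds 6.90 and 5.65), a pattern much like that of Cox4i2 but with 69.5 and 45.3 CPM in immune cells, 14.3% and 8.10% of the smooth muscle level. Cycs, cytochrome c itself, was at 495 and 490 CPM against 107 and 94.0 CPM. Genes that express mitochondrial DNA were mostly too low: 2 of 16 reached the minimum in quadriceps, with 0 past 2-fold (Slirp 0.34, Ssbp1 0.30). In diaphragm 1 of 2 was past 2-fold, Lrpprc, which stabilises mitochondrial messenger RNA, at 50.8 against 12.7 CPM (1.92). Tfam, which packages mitochondrial DNA, was at 25.6 and 40.6 CPM in smooth muscle and 29.6 and 26.4 CPM in FAPs. Of 11 regulators of mitochondrial biogenesis, Yy1 alone reached the minimum in quadriceps (log2 fold -0.13). Ppargc1b, a coactivator of this programme, was below it, at 39.5 against 2.44 CPM in quadriceps, and above it in diaphragm at 55.9 against 1.55 CPM. With Esrra, a nuclear receptor of the same programme, at 61.0 against 11.5 CPM (2.31), 2 of the 3 regulators at the minimum in diaphragm were past 2-fold higher. Ppargc1b, Esrra and Lrpprc reached the minimum in diaphragm only through smooth muscle, where they were high. Passing 2-fold was thus favoured by the minimum itself, and nothing is read from these counts. Of 13 hypoxia response genes, 6 reached the minimum in quadriceps with 2 past 2-fold higher and 3 lower: Epas1, which encodes HIF-2 alpha, was at 606 against 23.3 CPM (4.64) and Hif1a had 1.52, while Adm (-3.97) and P4ha1 (-1.95), both known targets, were lower. In diaphragm 3 of 7 were past 2-fold higher and 2 lower. The list had thus no common direction.

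Promoter sequences were compared because most nuclear members were higher in smooth muscle. RefSeq windows (GRCm38.p6) of the 250 bases before the transcription start were found for 73 of the 92 members and for 27025 genes. Members without a window included Atp5a1, Atp5f1, Atp5s, Atp5sl, Cox4i1, Cox4i2, Cox6a2, Cox6c, Cox8c, Ndufa2, Ndufa4l2, Ndufaf6, Ndufb9, Ndufs1, Sdhc, Uqcrb, Uqcrc2 and Uqcrq. The core letters of the NRF1 motif, GCGCATGC on either strand, were in 9 member windows (12.3%), 2.56% of all genes' windows and 4.83% of those of 3084 non-member genes at the minimum. The ETS letters CCGGAAG, bound by factors such as GABP, were in 13 windows (17.8%), 7.83% and 15.1%, the ERR letters AAGGTCA in 5 (6.85%), 4.70% and 3.24%, the YY1 letters AAGATGGC in 1 (1.37%), 1.83% and 2.66%, and the hypoxia response core ACGTG in 14 (19.2%), 18.5% and 25.7%. None of these motifs contains another, but the NRF1 letters overlap themselves on opposite strands. The NRF1 letters were in 8 of the 55 windows of members past 2-fold in quadriceps and in 1 of 10 of those at the minimum but not past it, and the ETS letters in 11 of 55 and 1 of 10, groups too unequal in size to set apart.

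The windows of 3 members are shown as examples, chosen among windows that overlap no GENCODE M21 exon: the members past 2-fold with the largest quadriceps fold that hold the NRF1 and ETS letters, and the member with the lowest fold. They are Ndufaf4 (chr4:24897833-24898082, plus strand), Ndufb6 (chr4:40279422-40279671, minus strand) and Cox7a2l (chr17:83514334-83514583, minus strand, inside the longest GENCODE extent of its gene), each written 5′ to 3′ on the strand of the gene, with matches to the NRF1 or ETS letters in capitals.
Ndufaf4: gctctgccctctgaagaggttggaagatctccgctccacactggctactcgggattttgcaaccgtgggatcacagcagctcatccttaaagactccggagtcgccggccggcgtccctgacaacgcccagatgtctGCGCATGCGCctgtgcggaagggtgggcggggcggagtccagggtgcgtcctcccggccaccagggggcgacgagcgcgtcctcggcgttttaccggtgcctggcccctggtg
Ndufb6: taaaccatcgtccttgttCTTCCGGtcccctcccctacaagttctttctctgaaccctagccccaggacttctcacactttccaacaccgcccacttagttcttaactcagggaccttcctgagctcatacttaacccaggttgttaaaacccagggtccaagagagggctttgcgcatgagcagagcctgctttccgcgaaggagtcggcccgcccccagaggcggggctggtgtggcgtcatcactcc
Cox7a2l: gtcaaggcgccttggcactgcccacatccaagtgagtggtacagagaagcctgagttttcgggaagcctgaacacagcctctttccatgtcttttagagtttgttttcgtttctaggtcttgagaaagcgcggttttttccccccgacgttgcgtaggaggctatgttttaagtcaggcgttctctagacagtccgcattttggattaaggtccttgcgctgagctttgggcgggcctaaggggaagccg
Ndufaf4 holds overlapping NRF1 letters on both strands that end 105 and 103 bases before the start, Ndufb6 holds the ETS letters on the reverse strand 225 bases before the start, and the Cox7a2l window holds neither. A match is a description of letters and not evidence of binding, and its absence says only that these letters are not in the window.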

How the data were processed

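Droplet libraries of quadriceps and diaphragm cells were processed by the authors with Cell Ranger 3.0.0 and Seurat on GRCm38 (mm10), per the submitters' processing notes. The deposited values are raw UMI counts per gene and barcode, already limited to called barcodes. Members, class markers and pathway lists were chosen with earlier results of these data known. Counts were summed per class and tissue and scaled to CPM over nuclear-gene UMIs. Mitochondrial shares used all UMIs. Folds were log2(CPM + 1), taken where either group reached 50 CPM, with 2-fold as the limit. No doublet caller was used for the main values. With 1 library per tissue no test was run. For shares of cells, cells were thinned to 1000 UMIs, counted on fewer than all UMIs of a cell, and those too shallow were left out. Named genes were the mitochondrial genes, the isoform pairs, the 5 members at each end of the quadriceps class and FAP tissue comparisons, and the 2 genes at each end of each list. Some items that met these rules are not reported here. Other members named were chosen after their values were seen. Scripts were tested on simulated data. Python 3.11.15, NumPy 2.4.6, SciPy 1.17.1, pandas 2.3.3, Scanpy 1.11.5 and matplotlib 3.10.9 were used, with 15 processing alternatives, and gene positions from GENCODE M21.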

Additional observations from a re-analysis of the deposited data

Results flagged for a closer look

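Barcodes outside the comparisons also held respiratory chain RNA, which was noted because these barcodes belong to no class. Barcodes under 1000 UMIs had mitochondrial shares of 22.3% in quadriceps (149 barcodes) and 46.7% in diaphragm (67 barcodes), with nuclear member shares of 1.82% and 1.24% of nuclear UMIs. Barcodes with enough UMIs but no class had mitochondrial shares of 16.9% in quadriceps (365 barcodes) and 5.15% in diaphragm (437 barcodes), with nuclear shares of 1.86% and 1.49991%. The shares were above the limit that 0 counts allow, and there were no control samples to set them against. No sample group was large enough to look for a single outlying library.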

How the results depend on the processing

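The 15 alternatives gave 296 values of the counts past 2-fold and the summed folds, of which 239 stayed within counting error or, for counts, within 1.5 times the main count. Of 1099 values for 75 single-gene folds, 1068 kept their sign, and of 609 values of genes past 2-fold, 19 fell under 2-fold. Depth limited the diaphragm smooth muscle and satellite classes (46 and 11 cells), and isoforms under 50 CPM. No paired analysis was possible because there was 1 library per tissue. The causes of the changes below were not tested, except where fewer cells remained.

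A limit of 5% mitochondrial UMIs left 12 quadriceps smooth muscle cells and none in diaphragm, so no diaphragm value could be had. It turned the summed mitochondrial log2 fold of smooth muscle over FAP in quadriceps from 2.15 to -0.27, by construction of the limit. With it turned mt-Atp6 (-0.57), mt-Co1 (-0.30), mt-Co2 (-0.33), mt-Co3 (-0.52), mt-Cytb (-0.36), mt-Nd3 (-0.57) and mt-Nd6 (-4.32). The nuclear gene Cox7a1 also turned (-2.74), but it was at 0 CPM in the 12 smooth muscle cells, so its value depends on the pseudocount. The nuclear summed log2 fold was 0.92 instead of 1.504, and 31 of 77 members were past 2-fold higher, beside 23.0% of all genes. With this limit 2 of 75 members were higher and 5 lower in satellite cells (16.2% and 31.6% of all genes), 1 of 74 higher and 1 lower in quadriceps immune cells (20.5% and 30.4%), and 1 of 74 lower in diaphragm than quadriceps immune cells (6.40%), and the FAP tissue log2 folds were -0.147 (nuclear) and 0.065 (mitochondrial).

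With a limit of 20% the mitochondrial fold of smooth muscle over FAP was 1.91 and the FAP tissue fold 0.0257. In quadriceps immune cells 1 of 74 members was then higher (19.5% of all genes). In smooth muscle 1 of 80 was higher in diaphragm than in quadriceps (4.97%). The class rule moved the mitochondrial fold to 2.22 (markers at 90%), 2.17 (50%) and 2.21 (no other class), the nuclear fold to 1.52 (90%) and 1.55 (no other class), the FAP tissue mitochondrial fold to 0.035, 0.0361 and 0.0253, and the FAP tissue nuclear fold to -0.148 (90%). In quadriceps immune cells 1 of 74 members was lower under 90% (32.7% of all genes), and 1 of 74 higher with no other class (19.7%). A minimum of 3000 UMIs gave a mitochondrial fold of 2.16. Scrublet called 98 quadriceps and 4 diaphragm barcodes, too few in diaphragm to have worked there. Without them the mitochondrial fold was 2.20 and the nuclear fold 1.54, and 1 of 74 members was higher in quadriceps immune cells (19.3% of all genes).

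Per 1000000 of all UMIs the nuclear fold was 1.27, and 2 of 75 members were higher in satellite cells (11.4% of all genes). In smooth muscle 56 of 79 members were higher in quadriceps and 46 of 78 in diaphragm. There all genes moved to medians of -0.36 and -0.30, with 17.2% higher and 30.7% lower in quadriceps and 20.2% and 31.7% in diaphragm. Without ribosomal protein genes the nuclear fold was 1.42 and the FAP tissue nuclear fold -0.12, with 9 of 78 members higher in satellite cells (18.4% of all genes). In quadriceps immune cells 6 of 77 were higher and 1 lower (25.1% and 26.1%). In diaphragm immune cells 4 of 76 were higher and 1 lower (28.2% and 24.7%). The mean of per-cell CPM gave nuclear 1.43, mitochondrial 2.26, FAP tissue -0.146 and 0.0757. In immune cells 2 of 75 members were then higher in quadriceps (20.5% of all genes) and 1 of 74 in diaphragm (23.3%).

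A minimum of 10 CPM gave 1 of 82 members higher in quadriceps immune cells (17.0% of all genes), 5 of 82 lower in diaphragm immune cells (30.8%), and in diaphragm against quadriceps 1 of 81 lower in immune cells (7.63%) and 3 of 85 in smooth muscle (7.03%). A pseudocount of 10 CPM left 1 of 74 members lower in quadriceps immune cells (30.6% of all genes) and 1 of 75 in diaphragm (28.7%). A limit of 1.5-fold gave 16 of 75 higher in satellite cells (23.2% of all genes), 6 of 74 higher and 11 lower in quadriceps immune cells (26.7% and 42.2%), 5 of 75 higher and 9 lower in diaphragm immune cells (30.3% and 38.6%), and 1 of 80 higher and 2 lower in diaphragm than quadriceps smooth muscle (12.3% and 9.72%).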

Other observations

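Smaller classes of the quadriceps library held respiratory chain RNA in other proportions. In 117 Schwann cells, the glia of peripheral nerve, nuclear members took 2.26% of nuclear UMIs (2.22 to 2.30), above satellite cells (2.11%). Without ribosomal protein genes in the total this order turned, with 2.48% in Schwann cells and 2.84% in satellite cells. Mitochondrial genes took 7.03% of all UMIs in Schwann cells. Relative to FAPs the nuclear genes of Schwann cells were 1.4825-fold higher for complex I, 1.35-fold for complex III, 1.45-fold for complex IV and 1.40-fold for complex V. Ndufa13 was at 812 CPM in Schwann cells and 358 CPM in FAPs, and Ndufa4l2 at 4.78 CPM (3 UMIs). The 52 endothelial cells had 9.53% mitochondrial UMIs but a nuclear share of 1.72%, with mitochondrial folds over FAPs of 2.18 to 2.73 by complex beside nuclear folds of 1.02 to 1.33 for complexes I, III, IV and V.

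The 66 tenocytes (Tnmd, Scx, Mkx, Thbs4), the cells of tendon, had a nuclear share of 1.63% (1.60 to 1.66), near that of FAPs, and a mitochondrial share of 7.02%. Ndufa4l2 was at 375 CPM in tenocytes, close to its 386 CPM in smooth muscle, and made up 56.4% of Ndufa4 plus Ndufa4l2 UMIs (51.5 to 61.2), while Cox4i2 was at 17.4 CPM (11 UMIs). Smooth muscle and tenocytes of the quadriceps thus had like levels of Ndufa4l2 and very different levels of Cox4i2. In diaphragm, with only 6 tenocytes, Ndufa4l2 stood at 10.0% of the smooth muscle level, below the 15.2% of FAPs there, and Cox4i2 at 1.47%. Among pathway list genes with 50 CPM in FAPs of either tissue, the only one past 2-fold between tissues was the hexokinase gene Hk2, at 123 CPM in diaphragm and 18.2 CPM in quadriceps (log2 fold 2.69).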
